A study of Mus musculus with 6 samples.

Results

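Endothelial cells line every blood and lymphatic vessel of adipose tissue, and 40 genes that mark them were followed here in the epididymal fat of mice on a high-fat diet. The genes were grouped by what is known of them: 33 were taken as general endothelial markers, called markers of all vessels below. They were 18 junction and surface proteins, 6 transcription factors and 9 receptors and signal proteins. Of the rest, 4 mark arteries, 2 mark veins and 1, Prox1, marks lymphatic vessels. Some of the 33, such as Emcn and Plvap, are not even across vessel types, so counts by vessel type rest on this grouping. Of the 40 genes, 39 stood in the gene table of 13116 genes, and all 39 passed the filter on low values (a 6-mouse mean of 0.5 FPKM or more), which left them among the 12847 genes tested. FPKM, fragments per kilobase of transcript and unit of mapped fragments, is a level scaled to gene length and library size. Prox1, the transcription factor that sets lymphatic identity, was not analysed here, so lymphatic vessels were read from other genes.

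Endothelial cells are held together by adherens and tight junctions, chiefly VE-cadherin (Cdh5) and claudin-5 (Cldn5), and their identity is kept by ETS factors such as Erg and Fli1 and by SoxF factors such as Sox17. Arterial cells carry the ligand ephrin-B2 and Notch signals, whereas venous cells carry its receptor EphB4 and the nuclear receptor Nr2f2 (COUP-TFII). In fat, a dense capillary bed brings fatty acids to adipocytes.

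The study asked what changes in fat when the RNA-binding protein HuR is lost from adipocytes. RNA was sequenced from the epididymal white adipose tissue of 3 control mice, HuRflox/flox:AdipoQ-Cre-, and 3 HuRAKO mice, HuRflox/flox:AdipoQ-Cre+, all C57BL/6 and all given a high-fat diet for 16 weeks from 8 weeks of age. Both groups carried the floxed HuR alleles, and the Cre of the HuRAKO mice was driven by the adiponectin promoter, which is active in adipocytes and not in endothelial cells. The control mice thus lacked Cre, and a mouse with Cre and no floxed allele was not analysed here. The tissue was whole fat, so in what follows a higher level of an endothelial marker can come from more endothelial cells or from more RNA in each cell. FPKM is scaled to library size, so a higher level can also come from less RNA of other cells. These cannot be told apart.

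HuR is encoded by Elavl1. It stood at 3.93, 4.85 and 4.98 FPKM in the control mice and at 4.66, 5.24 and 5.63 FPKM in the HuRAKO mice, with a log2 fold change of 0.15 ± 0.12 (SE, n = 3 per group; limma, adjusted p = 0.807). The gene's level in whole fat was thus not lower in the mice labelled HuRAKO, and every direction below is that of mice so labelled. By other methods, the study reported lower HuR mRNA (qPCR) and protein in HuRAKO fat, and lower HuR in its mature adipocytes. The values of a library summed to between 250270 and 264055 FPKM, and the read depth behind them is unknown. Control replicate 3 stood apart from the other mice along the first principal component of all genes, at 48.3 against -14.5 to -3.09, a component that held 41.1% of the variance. Its 8 macrophage markers summed to 1601 FPKM, against 597 to 1070 FPKM in the other 5 mice. Where leaving this mouse out ended a call, the value without it is given.

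Endothelial markers were mostly higher in the HuRAKO mice. By the thresholds of the study (fold over 1.5 with an unadjusted p under 0.05), 11 of the 39 markers rose and 0 fell: Cdh5, Cd93, Robo4 and Ptprb among junction and surface proteins, Erg and Sox17 among transcription factors, Notch4, Kank3, Arap3 and Sh2d3c among receptors and signal proteins, and Dll4 among arterial genes. That is 28.2% of the markers, where 1.27% of all genes tested rose and 1.35% fell. In 20 of the 39, every HuRAKO mouse was above every control mouse, as in 7.04% of all genes, and in 0 of the 39 every HuRAKO mouse was below, as in 7.68% of all genes. All 11 markers that rose were among those 20. The mean FPKM was higher in the HuRAKO mice for 35 markers and lower for 4, namely Plvap, Clec14a, Gja4 and Nr2f2, and the median log2 fold change was 0.43 over the 39 markers and -0.01 over all genes.

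With Benjamini-Hochberg adjustment over all genes, limma called 0 of the 39 markers at an adjusted p under 0.05, where 0.00778% of all genes, 1 gene, passed. At an unadjusted p under 0.05 alone there were 19 markers, 8 of them under the fold threshold on the log2(FPKM + 1) scale used here. By the ratio of mean FPKM, 3 of those 8, Aqp1, Sox18 and Efnb2, were over 1.5. That rule, an alternative chosen after seeing the data, gave 14 markers higher and 0 lower, where 1.95% of all genes were higher and 2.54% lower by that rule. The smallest adjusted p was 0.326, for Sh2d3c. The count of markers that rose was 7 without control replicate 3 and 8 without HuRAKO replicate 2. Markers outside the 11 also passed when 1 mouse was left out. They were Cldn5 without control replicate 1 (log2 fold change 1.07), Efnb2 without control replicate 1 (0.73) or HuRAKO replicate 3 (0.72), Sox7 without control replicate 2 (0.93), Aqp1 without control replicate 2 (0.68) or HuRAKO replicate 3 (0.76), and Sox18 without control replicate 3 (0.65) or HuRAKO replicate 1 (0.77). The same held for Esam without control replicate 2 (0.62) or HuRAKO replicate 2 (0.59), S1pr1 without HuRAKO replicate 1 (0.62), and Rasip1 without control replicate 2 (0.64) or HuRAKO replicate 1 (0.66).

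**Figure D1:**
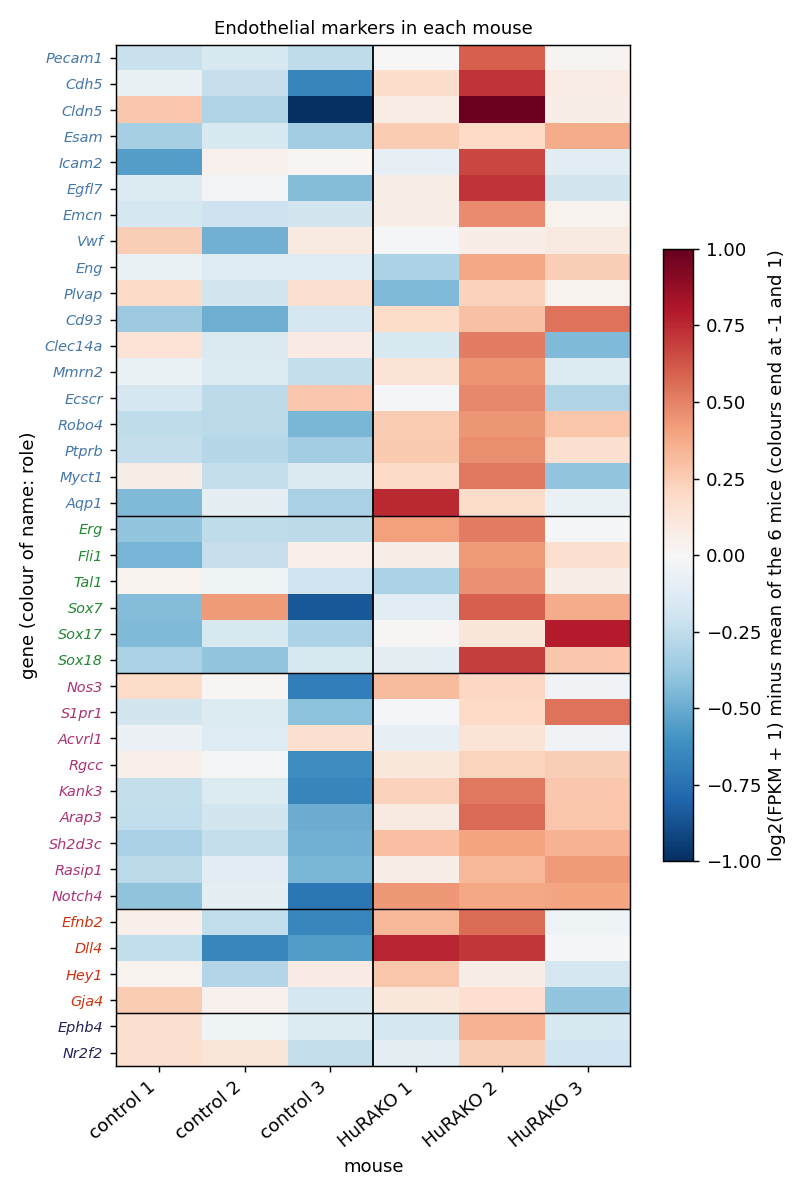
Level of 39 endothelial markers (rows, by role) in 6 mice (columns), as log2(FPKM + 1) minus the gene's mean over the 6 mice, red above and blue below the mean. HuRAKO replicate 2 has the highest value of 25 of the 39 genes and control replicate 3 the lowest of 19.

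The mice of a group were not alike. HuRAKO replicate 2 had the highest value for 25 of the 39 markers and control replicate 3 the lowest for 19. The median deviation of the 33 markers of all vessels from their means over the 6 mice was -0.22, -0.15 and -0.32 on the log2 scale in control replicates 1, 2 and 3, and 0.07, 0.45 and 0.09 in the HuRAKO mice. The 6 medians did not overlap between the groups, and HuRAKO replicate 2 stood above its group. The smooth muscle and pericyte list and a list of lymphatic genes were also highest in HuRAKO replicate 2 (medians of 0.43 and 0.48 above the 6-mouse mean), and their part in its values was not tested.

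Among the junction and surface proteins, Pecam1 and Cdh5 define the endothelium. Pecam1, an adhesion molecule of cell borders, was 32.5, 34.1 and 31.7 FPKM in the control mice and 38.2, 58.0 and 38.8 FPKM in the HuRAKO mice, so the groups did not overlap, but its log2 fold change of 0.42 (95% interval -0.01 to 0.85) did not pass. Cdh5 was 74.0, 66.3 and 49.1 FPKM in the control mice and 88.1, 129 and 82.3 FPKM in the HuRAKO mice. Cdh5 rose by a log2 fold change of 0.64 ± 0.23 (SE; limma, adjusted p = 0.562), yet it was 0.48 without control replicate 3 and 0.45 without HuRAKO replicate 2, and neither passed. Cldn5, the tight junction claudin and the marker with the widest spread, was 108, 72.2 and 41.2 FPKM against 93.7, 177 and 93.6 FPKM. It was the only marker over the 1.5-fold threshold whose p did not pass (0.75, 95% interval -0.22 to 1.72), and its groups overlapped. Single mice moved it: it was 1.07 and passed without control replicate 1, and it was 0.39 without control replicate 3 and 0.45 without HuRAKO replicate 2. Esam, a further tight junction adhesion molecule, had tight groups, 21.8 to 25.2 FPKM against 32.4 to 36.6 FPKM, with a log2 fold change of 0.55, just under the fold threshold on that scale.

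Robo4, Cd93 and Ptprb rose with little spread. Robo4, a receptor of the roundabout family that steadies vessel barriers, was 12.1, 11.9 and 10.3 FPKM in the control mice and 17.6, 20.1 and 17.9 FPKM in the HuRAKO mice (log2 fold change 0.65 ± 0.11, SE). It passed under each of the 15 alternative settings tried. Cd93, a transmembrane lectin-like protein that binds the matrix protein Mmrn2, was 22.1, 20.2 and 25.3 FPKM against 32.7, 35.3 and 42.2 FPKM (0.68 ± 0.14), and 0.58 without HuRAKO replicate 3, which is under the fold threshold. Mmrn2 itself was 19.7 to 22.4 FPKM against 21.3 to 32.4 FPKM, and its groups overlapped. Ptprb, the phosphatase VE-PTP that acts on VE-cadherin and on the receptor Tek, was 26.6, 25.8 and 24.6 FPKM against 38.1, 44.0 and 35.5 FPKM. At 0.59 ± 0.12 it was the called marker nearest the fold threshold of 0.585 on the log2 scale, and it was under that threshold without control replicate 3, at 0.56, and without HuRAKO replicate 2, at 0.50. Just outside the threshold were Sox18 and Aqp1, both at 0.58.

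Other surface proteins did not pass. The water channel Aqp1, which red blood cells also carry, was the second most abundant marker at a mean of 153 FPKM, and was 107, 137 and 117 FPKM in the control mice and 247, 167 and 140 FPKM in the HuRAKO mice. Its highest value was in HuRAKO replicate 1, the mouse whose 7 erythroid markers summed to the least, 477 FPKM against 1314 to 3435 FPKM in the other mice. Emcn, a sialomucin of capillaries and veins, was 4.31 to 4.42 FPKM against 5.28 to 7.52 FPKM, without overlap. The groups overlapped for Icam2, Egfl7, Vwf, Eng, Mmrn2, Ecscr and Myct1, whose log2 fold changes were between 0.10 and 0.40. Plvap, which forms the diaphragms of fenestrated endothelium, had the lowest log2 fold change of all 39 markers, -0.12 (95% interval -0.61 to 0.38). It was 49.0, 37.6 and 47.8 FPKM in the control mice and 31.1, 50.3 and 43.8 FPKM in the HuRAKO mice, and the groups overlapped. Clec14a, a surface lectin of angiogenic vessels, was 5.41, 4.23 and 5.13 FPKM against 4.22, 7.25 and 3.27 FPKM (-0.05, 95% interval -0.65 to 0.55), with HuRAKO replicate 2 far above the other HuRAKO mice.

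Of the 6 transcription factors, 2 rose, and 4 had every HuRAKO mouse above every control mouse. Of all genes tested, 1.27% rose and 7.04% had every HuRAKO mouse above. Erg, the ETS factor of the endothelial lineage, was 6.53, 7.32 and 7.25 FPKM in the control mice and 12.2, 13.1 and 8.78 FPKM in the HuRAKO mice (log2 fold change 0.61 ± 0.16, SE). It was under the fold threshold when control replicate 1, HuRAKO replicate 1 or HuRAKO replicate 2 was left out, at 0.56, 0.55 and 0.50. Fli1, the other ETS factor and one that blood cells also express, was 13.3, 15.8 and 19.4 FPKM against 19.6, 25.4 and 21.0 FPKM, and did not pass the fold threshold. The 3 SoxF factors stood close together in log2 fold change, Sox17 at 0.61, Sox18 at 0.58 and Sox7 at 0.57, but only Sox17 passed both thresholds. Sox17 was 4.86, 6.14 and 5.40 FPKM against 7.04, 7.67 and 12.7 FPKM, and without HuRAKO replicate 3, its highest mouse, the value was 0.37. Without control replicate 1 it was 0.54, and without control replicate 3 it was 0.61 with p over 0.05. Tal1, a factor shared by endothelial and blood precursors, was the least abundant marker at a mean of 1.54 FPKM, and its groups overlapped (1.18 to 1.55 against 1.01 to 2.44 FPKM).

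The 9 receptors and signal proteins held the largest share of markers that rose, 4 of 9, where 1.27% of all genes tested rose. The groups are small and were not tested against each other. Notch4, the Notch receptor found mainly in endothelium, was 5.21, 6.69 and 3.97 FPKM in the control mice and 10.1, 9.74 and 9.77 FPKM in the HuRAKO mice (SD 0.198 FPKM). Its log2 fold change of 0.81 ± 0.17 (SE) was the largest of the markers of all vessels. Sh2d3c, an adaptor with an SH2 domain, was 4.96, 5.30 and 4.35 FPKM against 8.17, 8.79 and 8.48 FPKM (0.69 ± 0.11). Notch4 and Sh2d3c, like Robo4, passed under each of the 15 alternatives. Kank3, of a family of cytoskeletal adaptors, was 27.2, 29.2 and 20.0 FPKM against 38.0, 46.8 and 39.1 FPKM (0.69 ± 0.17), and 0.53 without control replicate 3. Arap3, which turns off the small GTPases RhoA and Arf6, was 11.8, 12.4 and 9.75 FPKM against 15.2, 21.5 and 17.4 FPKM (0.62 ± 0.16). Kank3 did not pass without control replicate 3, and Arap3 passed neither without control replicate 3, at 0.52, nor without HuRAKO replicate 2, at 0.49.

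The other 5 signal genes did not pass. Rasip1, needed for the opening of vessel lumens, was 17.0 to 21.9 FPKM against 24.7 to 32.1 FPKM, and the sphingosine 1-phosphate receptor S1pr1 was 40.3 to 48.9 FPKM against 53.6 to 79.1 FPKM, both without overlap. Rgcc, a regulator of the cell cycle and the most abundant marker at a mean of 221 FPKM, was 224, 215 and 141 FPKM in the control mice and 234, 253 and 258 FPKM in the HuRAKO mice (0.39, 95% interval -0.08 to 0.85). Control replicate 3 was its lowest mouse, and the value was 0.17 without it. Nos3, the endothelial nitric oxide synthase, had a log2 fold change of 0.33 with overlapping groups, and of 0.061 without control replicate 3. Acvrl1, the receptor ALK1 for the bone morphogenetic proteins of the circulation, was 17.0, 16.1 and 19.9 FPKM against 16.7, 19.6 and 17.3 FPKM, a log2 fold change of 0.02 with an interval from -0.28 to 0.31.

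**Figure D2:**
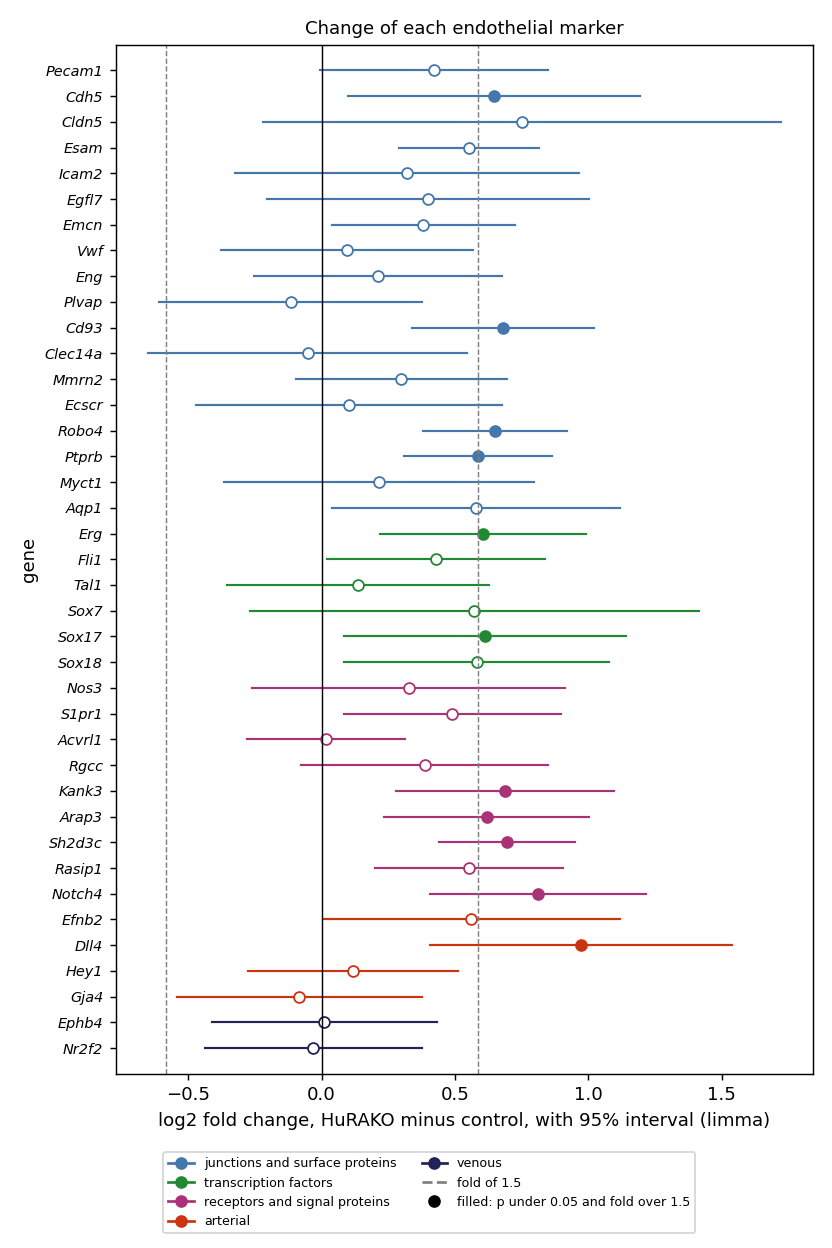
Log2 fold change (HuRAKO minus control, on the log2(FPKM + 1) scale, 3 mice per group) of 39 endothelial markers, with 95% intervals from limma and dashed lines at a fold of 1.5. Filled points are the 11 markers with p under 0.05 and a fold over 1.5, and the 2 venous genes lie at 0.01 and -0.03.

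The 4 arterial markers did not move together. Dll4, the Notch ligand of arteries and of sprouting tip cells, had the largest log2 fold change of all 39 markers, 0.97 ± 0.23 (SE; limma, adjusted p = 0.416). It was 4.43, 3.11 and 3.38 FPKM in the control mice and 9.95, 9.52 and 5.41 FPKM in the HuRAKO mice. HuRAKO replicate 3 was the lowest of its group but above every control mouse, and Dll4 passed under each of the 15 alternatives. Efnb2, which encodes ephrin-B2, was 4.76, 3.68 and 2.53 FPKM against 5.97, 7.17 and 4.37 FPKM, and the groups overlapped because HuRAKO replicate 3 was below control replicate 1. Its log2 fold change of 0.56 (95% interval 0.01 to 1.12) lay under the fold threshold, and it was 0.38 without control replicate 3 and 0.73, which passed, without control replicate 1. Hey1, a transcription factor that Notch signals switch on, was 3.09, 2.26 and 3.21 FPKM against 3.84, 3.17 and 2.55 FPKM (0.12, 95% interval -0.28 to 0.51). Gja4, the gap junction protein connexin 37, was 9.63, 8.20 and 6.96 FPKM against 8.60, 9.01 and 5.79 FPKM (-0.08, 95% interval -0.54 to 0.38). The intervals of Hey1 and Gja4 ended below the fold threshold of 0.585. That of Dll4 began at 0.41, also under the threshold, and overlapped that of Hey1. The arterial genes were not tested against each other.

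The venous markers did not differ beyond the spread between mice. Ephb4, the receptor of ephrin-B2, was 18.9, 16.2 and 15.2 FPKM in the control mice and 14.7, 21.6 and 15.0 FPKM in the HuRAKO mice (log2 fold change 0.01, 95% interval -0.41 to 0.43). Nr2f2 was 7.16, 6.93 and 5.17 FPKM against 5.86, 7.59 and 5.35 FPKM (-0.03, 95% interval -0.44 to 0.38). Within each gene HuRAKO replicate 2 was the highest mouse, as it was for most endothelial genes. Nr2f2 is also expressed by other cells of fat.

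**Figure D3:**
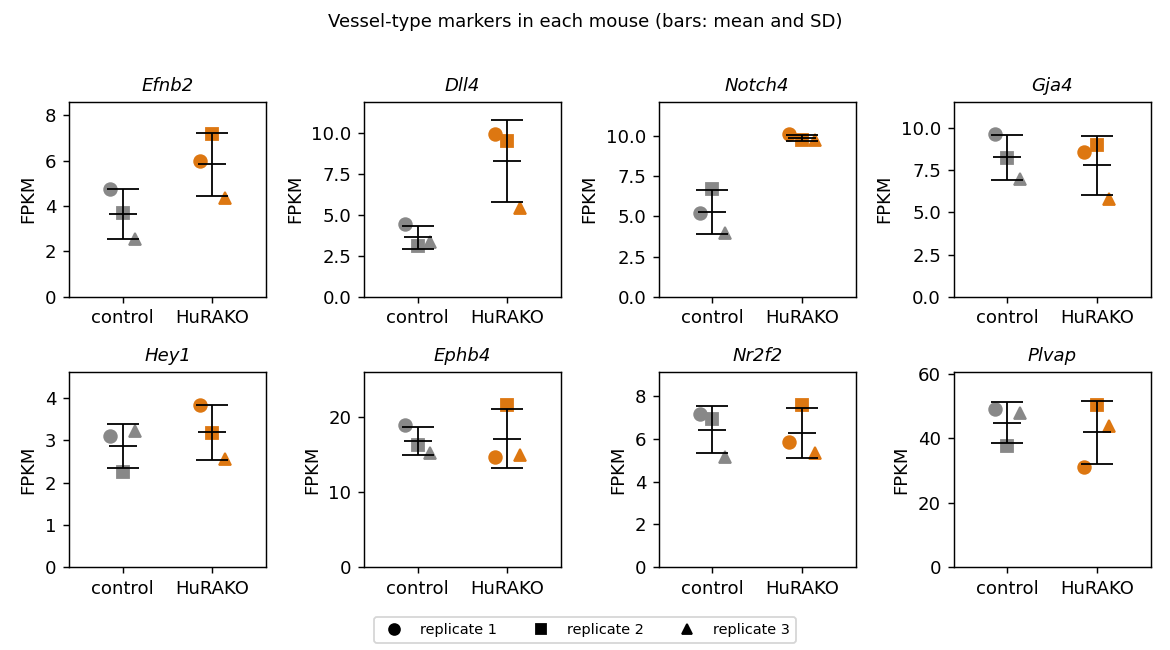
FPKM (vertical axes, from 0) of 8 markers in each of 3 control (grey) and 3 HuRAKO (orange) mice, with the mean and SD as bars and the replicate as the symbol. Dll4 and Notch4 do not overlap between the groups, whereas Efnb2, Gja4, Hey1, Ephb4, Nr2f2 and Plvap do.

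Ratios were also taken between genes of the same mouse. The ratio of Efnb2 to Ephb4, the arterial ligand over its venous receptor, was 0.252, 0.227 and 0.166 in the control mice and 0.406, 0.331 and 0.292 in the HuRAKO mice, without overlap. The ratio of Dll4 to Ephb4 was 0.235, 0.192 and 0.222 against 0.677, 0.440 and 0.361. Between arterial genes, Dll4 to Gja4 was 0.461, 0.380 and 0.485 against 1.16, 1.06 and 0.934. Between Notch receptors, Notch4 to Notch1 was 0.496, 0.611 and 0.480 against 1.05, 0.782 and 0.927. Each of the 4 ratios gave p = 0.1 in a two-sided exact permutation test, the smallest value that 3 mice against 3 allow, and p = 0.1 after adjustment over the 4. That test set aside the pairing of mice by replicate number. With signs changed within the 3 pairs, the exact permutation p was 0.25 for each ratio, the smallest that 3 pairs allow. The pairs were chosen after the values of the genes had been seen, so the ratios are a description.

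Set against the geometric mean of Pecam1 and Cdh5 in the same mouse, the other 37 markers split, with a higher mean share in the HuRAKO mice for 18 and a lower mean share for 19. Dll4 alone had every HuRAKO mouse above every control mouse, at 9.05%, 6.55% and 8.55% of the reference in the control mice and 17.1%, 11% and 9.57% in the HuRAKO mice, a pattern that 0.28% of all genes showed. For 9 markers every HuRAKO mouse was below every control mouse: Plvap, Clec14a, Mmrn2, Ecscr, Tal1, Acvrl1, Gja4, Ephb4 and Nr2f2. That pattern is common, since the reference itself was higher in the HuRAKO mice (56.5 to 86.5 FPKM against 39.5 to 49.0 FPKM), and 46.9% of all genes showed it. Ephb4 was 38.5%, 34.2% and 38.5% of the reference in the control mice and 25.3%, 25.0% and 26.5% in the HuRAKO mice, and Nr2f2 was 14.6%, 14.6% and 13.1% against 10.1%, 8.77% and 9.47%.

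The bases before the start of 3 of these genes are shown: Notch4 and Dll4, which rose most among markers of all vessels and of arteries, and venous Ephb4, whose log2 fold change was near 0. They are RefSeq promoter bases of build GRCm38.p6, on the plus strand, cut before the first base of the gene in the deposited table: chr17:34564045-34564267 for Notch4, chr2:119325534-119325783 for Dll4 and chr5:137349859-137350108 for Ephb4. The gene bodies that follow were listed at chr17:34564268-34588503, chr2:119325784-119335962 and chr5:137350109-137378669. Capitals mark AGGAAG on either strand, a sequence that holds GGAA, the core that ETS factors such as Erg and Fli1 are known to bind.
Notch4: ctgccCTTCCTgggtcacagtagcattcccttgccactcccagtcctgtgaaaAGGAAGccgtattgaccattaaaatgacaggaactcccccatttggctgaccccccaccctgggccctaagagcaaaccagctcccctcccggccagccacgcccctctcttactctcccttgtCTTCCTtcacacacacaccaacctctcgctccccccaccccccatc
Dll4: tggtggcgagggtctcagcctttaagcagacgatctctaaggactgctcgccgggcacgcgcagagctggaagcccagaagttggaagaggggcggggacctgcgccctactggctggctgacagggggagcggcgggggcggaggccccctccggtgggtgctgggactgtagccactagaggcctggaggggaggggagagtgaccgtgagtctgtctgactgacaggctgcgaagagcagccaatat
Ephb4: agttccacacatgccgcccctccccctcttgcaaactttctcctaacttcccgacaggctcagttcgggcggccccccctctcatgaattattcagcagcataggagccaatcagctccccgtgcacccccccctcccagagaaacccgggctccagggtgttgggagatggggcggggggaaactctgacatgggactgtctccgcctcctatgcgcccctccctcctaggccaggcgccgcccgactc
Notch4 held 3 matches of AGGAAG and Dll4 and Ephb4 held 0 in the bases shown. The shorter GGAA was not counted, and it also stands in the bases of Dll4 and Ephb4. Of the 39 markers, 20 had a promoter window in the table used, with 25 windows in all. In the 250 bases before the start, AGGAAG stood in 11 of the 25 windows (44.0%), from 10 genes, and in 29.5% of 32851 windows of the whole table. CGGAAG, which also holds GGAA, stood in 0 of the 25 windows (13.6% of all). The SoxF core AACAAT stood in 2 (9.42% of all). TGGGAA, the core of the Notch effector RBPJ, stood in 4 (21.6% of all). All were read on both strands. A match is a description of these letters and not a bound site.

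The table of transcripts gave the same picture for most genes. The 39 markers had 91 listed transcripts, and 19 of the genes had 1 transcript each. For some of these, such as Cd93 and Arap3, the transcript had the gene's own values, so the match is not an independent check. Of the 86 transcripts tested, 12 rose, from 10 of the 11 genes that rose, and 0 fell, where 2.31% of all 23233 transcripts tested rose and 2.28% fell. The exception was Sox17. At an adjusted p under 0.05 limma called 0 of the 86, with 18 at an unadjusted p under 0.05, and without control replicate 3 the count that rose was 6. Robo4-201 and Robo4-202 both rose, and so did Sh2d3c-201 and Sh2d3c-202. Eng-201, a minor transcript of endoglin at 4.67, 4.25 and 3.60 FPKM against 2.57, 2.61 and 3.37 FPKM, was lower in every HuRAKO mouse (log2 fold change -0.43) but did not pass the fold threshold, while Eng as a gene was 42.1 to 44.0 FPKM against 36.9 to 60.8 FPKM.

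**Figure D4:**
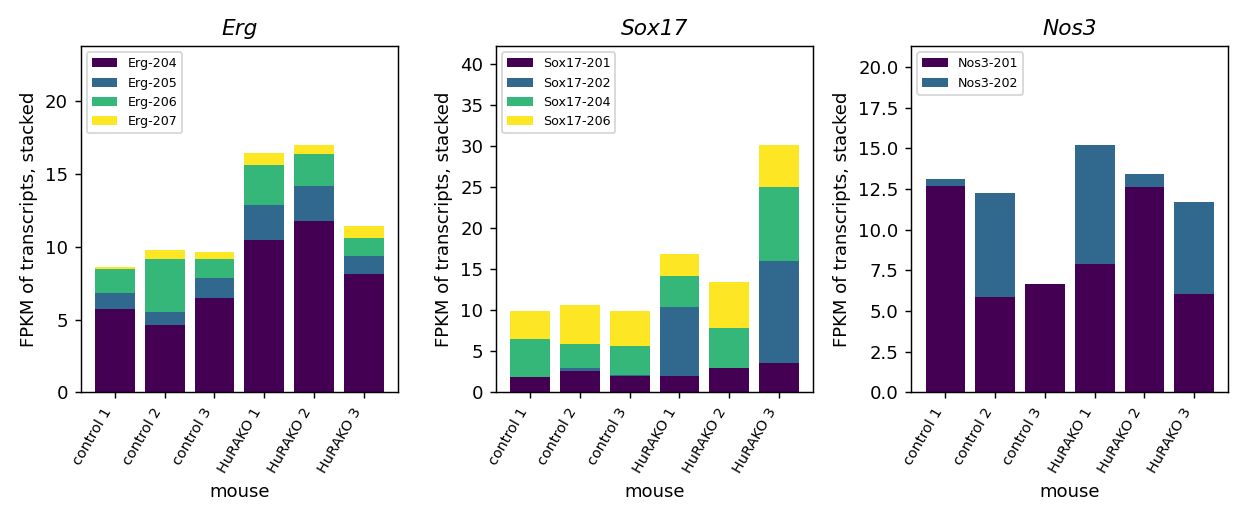
FPKM of the tested transcripts of Erg, Sox17 and Nos3, stacked, in each of 6 mice. Erg-204 is taller in each HuRAKO mouse, Sox17-202 is seen in HuRAKO replicates 1 and 3, and the share of Nos3-202 changes from mouse to mouse in both groups.

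Within Erg, the main transcript Erg-204 rose, from 5.75, 4.64 and 6.49 FPKM to 10.5, 11.8 and 8.16 FPKM, while Erg-206 was 1.63, 3.70 and 1.30 FPKM against 2.77, 2.19 and 1.24 FPKM with overlap. Transcripts of Sox17 differed between the HuRAKO mice. Sox17-202 was at 0, 0.301 and 0.0683 FPKM in the control mice and 8.44, 0 and 12.4 FPKM in the HuRAKO mice. HuRAKO replicate 2 had it listed at 0, so the groups overlapped and the transcript did not pass. Sox17-204 was 4.58, 2.97 and 3.53 FPKM against 3.72, 4.88 and 9.11 FPKM, and Sox17-201 and Sox17-206 overlapped between the groups as well. FPKM of transcripts did not add up to that of the gene: in HuRAKO replicate 1, Sox17-202 alone was above the 7.04 FPKM of the gene. The assignment to transcripts of 1 gene varied from mouse to mouse: Nos3-202 was 0.461, 6.42 and 0 FPKM in the control mice and 7.30, 0.796 and 5.66 FPKM in the HuRAKO mice, and Ecscr-201 was above 0 only in control replicate 2 (3.40 FPKM) and HuRAKO replicate 2 (4.73 FPKM).

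Other endothelial genes outside the 40 were read for comparison. They were chosen with earlier results of these data known, so they are not an independent check. Of 17 further genes of all vessels and capillaries, 8 rose (Bcl6b, Btnl9, Kdr, Gpihbp1, Ushbp1, Flt1, Adgrf5 and Meox2) and 0 fell. Of all genes tested, 1.27% rose and 1.35% fell. The median log2 fold change of the 17 was 0.57, against -0.01 over all genes, and all 17 had a higher mean in the HuRAKO mice. Bcl6b, a transcriptional repressor of endothelium, was 4.21, 3.30 and 1.88 FPKM against 8.28, 10.5 and 5.74 FPKM (1.16 ± 0.28, SE). The VEGF receptors Flt1 and Kdr were 10.3 to 12.2 against 16.0 to 20.8 FPKM and 18.2 to 24.1 against 28.0 to 41.8 FPKM. Gpihbp1, which carries lipoprotein lipase to the capillary lumen, was 42.1, 65.7 and 39.5 FPKM against 74.4, 82.4 and 77.2 FPKM. Its log2 fold change was 0.69, and it was 0.56 and did not pass without control replicate 3. Flt1 was under the fold threshold without HuRAKO replicate 3 (0.57), and Adgrf5, an adhesion receptor, without control replicate 1 (0.58) or HuRAKO replicate 2 (0.57). For Meox2 and Ushbp1 no values with 1 mouse left out are given, so their calls are not shown to hold without a single mouse.

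Of 11 further arterial genes 0 rose and 1, Stmn2, fell, with a median of 0.15. By the same thresholds 1.27% of all genes tested rose and 1.35% fell, so a count of 0 in a list this short says little. Stmn2, a microtubule protein that neurons express strongly, was 6.63, 3.94 and 8.93 FPKM against 2.37, 2.66 and 3.41 FPKM, and fell by 0.93 on the log2 scale. Sema3g (0.46) and Nrp1 (0.37) had every HuRAKO mouse above every control mouse, as in 7.04% of all genes, without passing the fold threshold. Of 5 further venous genes 4 were listed, and 0 rose or fell, with a median of 0.21. Nrp2 was 5.61 to 8.37 FPKM against 9.41 to 9.78 FPKM, without overlap. The capillary, arterial and venous lists were not tested against each other.

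For lymphatic vessels, 8 further genes on 9 lines were listed, since Ccl21a stood at 2 places in the table as a gene with near-identical copies. Among these 0 rose or fell, with a median of 0.10, where 1.27% of all genes tested rose and 1.35% fell. In so short a list a count of 0 says little. Flt4, the receptor of the lymphatic growth factor VEGF-C, was 3.13, 2.79 and 2.53 FPKM against 3.34, 5.34 and 3.91 FPKM (0.43, under the fold threshold). Lyve1, which macrophages of fat also express, was 43.8, 40.6 and 99.1 FPKM against 42.6, 32.6 and 74.8 FPKM. Its 2 highest mice, control replicate 3 and HuRAKO replicate 3, also had the 2 highest sums of macrophage markers. Pdpn, also made by mesothelium and fibroblasts, was 31.6, 28.9 and 59.6 FPKM against 23.2, 23.9 and 29.5 FPKM (-0.56, 95% interval -1.24 to 0.11). Mmrn1, a secreted protein of lymphatic vessels, was 3.17, 3.61 and 5.08 FPKM against 3.12, 10.8 and 2.87 FPKM, with HuRAKO replicate 2 far above all other mice.

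**Figure D5:**
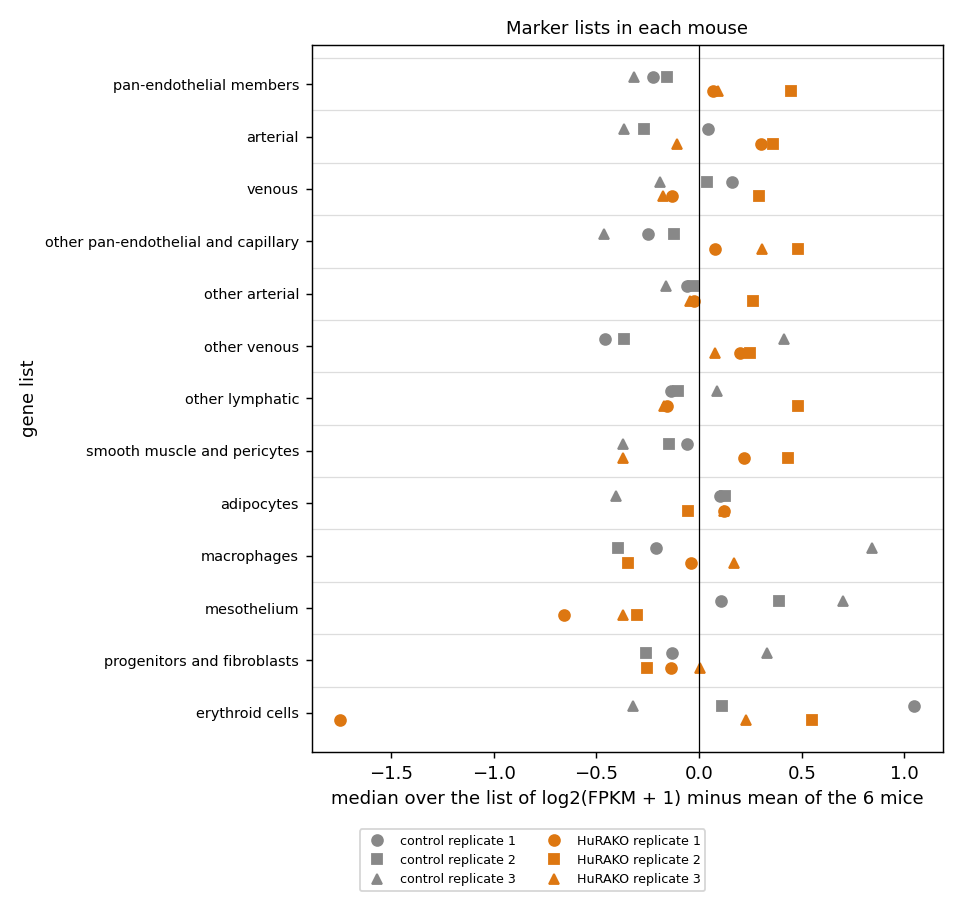
Median over each marker list of log2(FPKM + 1) minus the gene's mean over the 6 mice, 1 point per mouse, controls in grey above and HuRAKO in orange below. The markers of all vessels and the other capillary genes do not overlap between the groups, and neither do the mesothelial markers, which are lower in the HuRAKO mice.

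Markers of other cell types moved in part with the groups. By the same thresholds, 1.27% of all genes tested rose and 1.35% fell. Of 12 genes of smooth muscle and pericytes, the cells that wrap vessels, 3 rose, Abcc9, Tagln and Acta2, and 0 fell, and the list summed to 253 to 387 FPKM in the control mice and 454 to 637 FPKM in the HuRAKO mice. Acta2 and Mcam were its most abundant genes, and by the median deviation of the list the groups overlapped, with HuRAKO replicate 3 and control replicate 3 lowest at -0.37. Des, Cnn1 and Cspg4 had lower means in the HuRAKO mice, with log2 fold changes of -0.21, -0.16 and -0.15, none of which passed. Acta2, the smooth muscle actin, was 118, 72.9 and 80.3 FPKM against 135, 297 and 218 FPKM, whereas Myh11, the smooth muscle myosin, overlapped between the groups (10.4 to 13.3 against 6.67 to 18.0 FPKM). Of 7 mesothelial genes 6 fell and 0 rose, with sums of 173 to 271 FPKM in the control mice and 94.9 to 131 FPKM in the HuRAKO mice. Upk3b, the most abundant of them, was 60.2, 71.7 and 95.6 FPKM against 33.7, 41.3 and 45.4 FPKM. Of 8 adipocyte genes only Lep, which encodes leptin, rose, and the list summed to 3787 to 5330 FPKM against 4803 to 5454 FPKM. Its most abundant gene, Adipoq, was 1286 to 1631 FPKM against 1325 to 1625 FPKM.

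Of 8 macrophage genes and of 7 genes of progenitors and fibroblasts 0 rose or fell. The macrophage genes summed to 597 to 1601 FPKM against 726 to 1070 FPKM, with Lyz2 as the most abundant at 366 to 999 against 482 to 632 FPKM, and the progenitor and fibroblast genes to 515 to 884 FPKM against 472 to 521 FPKM, with Dcn at 309 to 373 against 222 to 284 FPKM. The 7 erythroid genes summed to 1314 to 3435 FPKM against 477 to 2447 FPKM, and 0 rose or fell. Of 6 platelet genes 2 were listed, Pf4 and Gp1bb, and 0 rose or fell. Every listed gene of these lists passed the filter on low values. The part of these other cell types in the endothelial differences was not tested.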

How the data were processed

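RNA from epididymal fat of 6 mice was sequenced by the authors, whose submission notes name Bowtie 0.12.2 and GRCm38. The deposited files hold FPKM per gene and per transcript, computed by the authors. The program that computed them, and whether counting used strand, are not given in the sources used here, and the library kit is named differently in the labels and the study's methods. Read counts were not used here. Columns were matched to mice by the mouse number in the labels.

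Genes whose 6-mouse mean reached 0.5 FPKM were compared on log2(FPKM + 1) with limma 3.58.1 in R 4.3.3, two-sided, without covariates, with the study's thresholds (unadjusted p under 0.05, fold over 1.5) and Benjamini-Hochberg adjustment over all genes. Fold changes on this scale understate those of low genes. The script was tested on simulated data. Tables were made with Python 3.11.15, pandas 2.3.3 and numpy 2.4.6, and figures with matplotlib 3.10.9. The same was done for transcripts. Each result was recomputed under 15 alternatives, 6 of which left out 1 mouse, and the counts also with the fold as the ratio of mean FPKM, chosen after seeing the data. The members and lists were chosen with earlier results of these data known. Named are all markers that passed, the defining genes of each vessel type, the 3 highest and 3 lowest markers, those with a lower mean in HuRAKO mice, and up to 3 genes with the smallest p or the highest level of other lists; further genes are given by a single value or range. The other genes of the report were added after their values were seen.

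Replicate numbers 1 to 3 recur in both groups. The deviations of same-numbered mice from their group means correlated across genes at 0.101, 0.175 and 0.220, over the limit of 0.1, so the numbers were treated as possible pairs. The main fit did not use the pairing, and its p-values, SE and intervals leave it out. A replicate block was fitted only as an alternative. The labels do not say what a number marks, and control replicate 1 correlated as much with HuRAKO replicate 2 (0.106).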

Additional observations from a re-analysis of the deposited data

How the results depend on the processing

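The 11 markers that rose numbered 7 to 15 when 1 mouse was left out, with 6 of the 11 among the 7 without control replicate 3, and 8 to 14 under the 9 other settings (another pseudocount, other filters, rescaled or median-centred values, no moderation of the variance, a variance trend, array weights and a replicate block). Robo4, Sh2d3c, Notch4 and Dll4 passed under all 15. No marker fell and 0 passed an adjusted p of 0.05 under any of the 15. With a replicate block the same 11 markers rose, with 187 genes higher and 197 lower, and the block changed no call on the markers. The 163 genes that rose were 102 without moderation and 180 to 211 with 1 mouse left out. The 174 that fell were 329 with a pseudocount of 0.1 FPKM, 111 without moderation and 170 to 314 with 1 mouse left out. The 12 transcripts that rose were 6 to 16, and the 0 that fell were 0 to 1, with 1 mouse left out. With 1 mouse left out, the log2 fold changes that changed sign were those of Vwf (-0.12 to 0.24), Plvap (-0.26 to 0.077), Clec14a (-0.32 to 0.15), Ecscr (-0.11 to 0.28), Tal1 (-0.060 to 0.33), Acvrl1 (-0.048 to 0.10), Gja4 (-0.19 to 0.092), Ephb4 (-0.16 to 0.10), Nr2f2 (-0.16 to 0.061) and Lyve1 (-0.58 to 0.15), and with array weights those of Ephb4 (-0.0079) and Lyve1 (0.032). Over the 39 markers and 15 settings, 20 marker values lost a call, 18 gained one and 21 changed sign. By the ratio of mean FPKM, an alternative chosen after seeing the data, 14 markers and 251 genes were higher and 0 markers and 326 genes lower. The cause was not tested. Nothing in the labels says how mice were assigned to libraries or runs, and with 3 mice per group and no read counts, small differences could not be resolved.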
